A study of Coryphaena hippurus with 32 samples.

Results

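Solute carriers are membrane proteins that move amino acids, sugars, ions, metals, vitamins and neurotransmitters across cell membranes, and their transcripts were followed here in a warm-water ocean fish, the mahi-mahi (Coryphaena hippurus), as it developed with or without crude oil from the Deepwater Horizon spill. The members were all genes whose symbol in the authors' deposited comparison tables had the form SLC, a family number, A and a member number, with 5 of 272 matching symbols (SLC14A2, SLC15A1, SLC6A8, SLC4A1 and SLC45A2) left out beforehand. This gave 267 members of 12535 symbols, of which 248 had at least 1 count and 19 had none. The pattern also takes in 5 proteins named after a carrier that are not carriers themselves, such as SLC4A1AP, and 5 members shared their table line with another gene identifier. RNA-seq libraries were made from whole animals, pooled 30 to a replicate, at 24, 48 and 96 hours post fertilization (hpf). Eggs spawned by captive wild-caught broodstock were held in static seawater without oil (control, 0 g/l in the labels) or with a water accommodated fraction, a mechanically blended mixture of oil and seawater, of slick oil or of source oil (1 g/l in the labels for both). Slick oil had weathered at the sea surface and source oil came from the well. The hydrocarbon content of the water was not used here, so type of oil and effective dose cannot be told apart where slick is set against source.

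Solute carriers are grouped into numbered families by sequence, and most families share a kind of substrate. Secondary active carriers couple uphill transport to the sodium gradient set by the sodium-potassium pump or to a proton gradient, and others exchange solutes or let them pass down their gradient. In vertebrate larvae, absorptive carriers of gut and kidney serve feeding after the yolk is used, carriers of ionocytes and kidney serve salt balance, and plasma membrane and vesicular carriers of neurons and glia clear and store transmitters. Roles given below for single genes are known mostly from mammals.

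A deposited sample held 1823727 to 2560303 counts over 1 table line per gene. In 5 pairs of control samples at 48 and 96 hpf the counts differed by no more than sampling noise (chi-square per degree of freedom 0.968 to 1.033, whereas the remaining 41 same-group pairs had 1.182 to 3.028), and each such pair was counted as 1 sample. The 9 groups of stage and treatment then held 3 libraries each, 27 in all. Levels are given as CPM, the count of a gene scaled to a common library size, after TMM scaling, without gene lengths, so they can be compared between groups for a gene but not between genes. Of the 248 members with a count, 149 had more than 1 distinct line in the count table, and the line with the highest total was used. Lines are keyed to human gene identifiers in a way that was not given. Copies of a gene that fish carry in duplicate therefore cannot be told from other lines of that gene. Because whole animals were sequenced, fewer cells of a type and less RNA per cell cannot be told apart.

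The first comparison follows the carriers through normal development. Between 48 and 96 hpf most of the measured carriers of amino acids, neurotransmitters, calcium and vitamins rose in controls. In the fit over all 27 libraries, 188 members passed the filter on low counts. From 48 to 96 hpf, 107 of them were higher and 20 lower at an edgeR quasi-likelihood adjusted p below 0.05, against 34.9% higher and 27.4% lower among all 8898 genes tested. The median log2 change was 0.52 over these members and 0.05 over all genes. From 24 to 48 hpf, 39 members were higher and 36 lower, against 25% and 22.9% of all genes, with medians of 0.06 and 0.01. A member that passed the filter only through the stage at which it is high had to differ, so these shares describe the members measured and not all members.

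**Figure D1:**
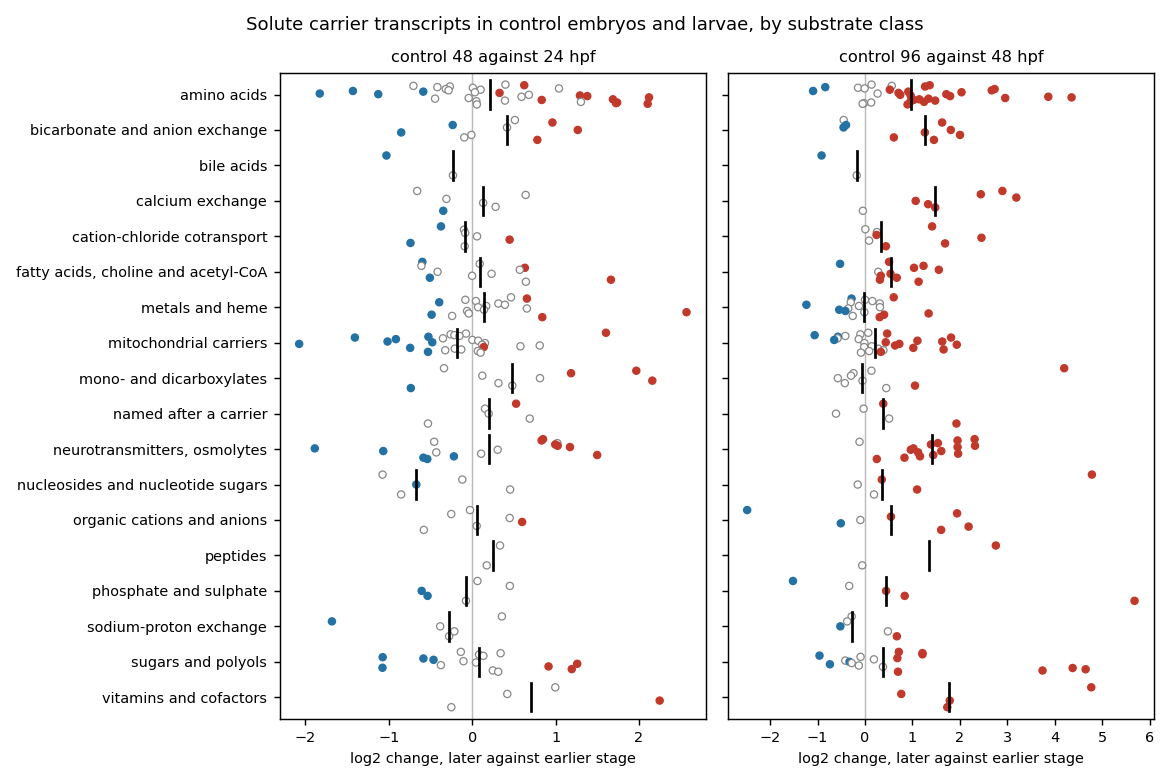
Log2 change between stages in control libraries for each solute carrier tested (points), by substrate class, with the class median as a bar; red and blue points were higher or lower at an adjusted p below 0.05 and open points were not called. Members at 0 in 1 stage are not drawn (4 from 24 to 48 hpf and 1 from 48 to 96 hpf), and the right panel shows 15 of 16 neurotransmitter and osmolyte carriers and 22 of 32 amino acid carriers higher at 96 hpf, against 34.9% of all genes.

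Among the steepest rises from 48 to 96 hpf were those of carriers known to sit in the brush border of intestine and kidney in mammals. SLC6A19, which takes up neutral amino acids with sodium, had 2.3 CPM at 24 hpf, 10.1 ± 0.58 CPM (SD, n = 3) at 48 hpf and 203 ± 22 CPM at 96 hpf, a 20.5-fold rise in the last step (log2 4.35, SE 0.11, edgeR adjusted p 3.3e-61). SLC5A1, the sodium-glucose cotransporter, went from 4.48 ± 0.68 to 92.7 ± 5.8 CPM (20.8-fold, log2 4.38, SE 0.15, edgeR adjusted p 1.8e-47). SLC23A1, a sodium-coupled vitamin C carrier, went from 1.8 ± 0.74 to 48 ± 6.3 CPM (27.3-fold). In each of these genes all 3 control libraries at 96 hpf lay above all 3 at 48 hpf. SLC10A2, the ileal sodium-bile acid cotransporter, had no count in any of the 18 libraries at 24 and 48 hpf and 13.9, 20.4 and 16.6 CPM in controls at 96 hpf, at least 66.7-fold higher than a floor of 3 counts over the 48 hpf control group. SLC34A2, a sodium-phosphate cotransporter, and SLC28A2, a concentrative nucleoside carrier, were near the limit of detection at 48 hpf (2 counts each over the control group) and reached 8.69 ± 0.74 and 4.61 ± 0.12 CPM. SLC13A2 (dicarboxylates such as citrate), SLC5A11 (inositol and glucose) and SLC15A2 (di- and tripeptides) rose 18.4-, 25.1- and 6.77-fold. All 4 tested marker genes of the intestine rose over the same interval, and their part in the result was not tested.

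Carriers of the nervous system made up a second group that rose late. Of 16 tested carriers of neurotransmitters and osmolytes, 15 were higher at 96 than at 48 hpf and none was lower, with a median log2 change of 1.41. In that step 34.9% of all genes were higher and 27.4% lower. The GABA- and glycine-loading vesicular carrier SLC32A1 had means of 14.1, 28.5 and 73.3 CPM at 24, 48 and 96 hpf and the glycine carrier SLC6A5 had 18, 51.4 and 137 CPM. SLC12A5, the potassium-chloride cotransporter that keeps chloride low in mature neurons, stood at 49.3 and 51.9 CPM at 24 and 48 hpf and at 281 ± 7.6 CPM at 96 hpf (5.48-fold, edgeR adjusted p 3.2e-56). SLC4A10, a sodium-coupled bicarbonate carrier of neurons, rose in both steps, from 40 ± 3.4 to 78.7 ± 3.9 and 241 ± 8.2 CPM. SLC8A1, the sodium-calcium exchanger best known from heart, rose 2.52-fold in the last step, and 6 of the 7 calcium exchangers tested were higher. Of the 5 tested neuron markers 4 were higher and 1 lower over this step, and their part in the result was not tested.

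From 24 to 48 hpf 1 iron carrier and some amino acid carriers were among those that rose, where 25% of all genes were higher and 22.9% lower. Other amino acid carriers fell in this step, among them SLC43A1, SLC38A7 and SLC43A2. The iron exporter SLC40A1 (ferroportin) rose from 4.56 ± 1.2 to 27.6 ± 2.6 CPM (5.93-fold, log2 2.57, SE 0.23, edgeR adjusted p 4e-18). The monocarboxylate carrier relative SLC16A4 rose 4.47-fold, from 6.06 ± 2.1 to 27.1 ± 1.2 CPM. Some light chains of heterodimeric amino acid exchangers rose as well, SLC7A7 4.3-fold, SLC7A5 3.33-fold and SLC7A6 3.3-fold. SLC44A5, of the choline carrier-like family, rose 3.17-fold and SLC45A1, a sugar carrier relative, 2.39-fold. SLC12A3, the thiazide-sensitive sodium-chloride cotransporter, had no count at 24 hpf and 4.77 ± 2 CPM in controls at 48 hpf, at least 9.01-fold above the floor of 3 counts over the group.

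Among members that fell early, SLC6A13, a carrier of GABA and taurine, went from 212 ± 15 to 58 ± 3.8 CPM (0.27-fold, edgeR adjusted p 9e-39) and was back at 116, 121 and 112 CPM at 96 hpf. SLC43A1, a carrier of branched-chain amino acids, fell from 50.8 ± 5.1 to 14.4 ± 2.3 CPM and stayed between 15.5 and 19.3 CPM at 96 hpf. SLC38A7, a lysosomal glutamine carrier, fell in both steps, from 21.9 ± 3.8 to 8.19 ± 1.1 and then to 3.93 CPM (mean of 3.93, 3.37 and 4.48). Of 26 mitochondrial carriers tested, 8 were lower and 2 higher in this step (30.8% and 7.69%, against 22.9% and 25% of all genes). The group includes SLC25A32, a mitochondrial folate and FAD carrier (0.237-fold), and the ADP/ATP carrier SLC25A5 (3195 ± 144 to 2239 ± 30 CPM). In the next step 11 of the 26 were higher (42.3%, against 34.9% of all genes), such as the mitochondrial phosphate carrier SLC25A3 (1.35-fold), and 3 lower, among them SLC25A15, the ornithine carrier of the urea cycle (0.479-fold), and SLC25A20, which carries acylcarnitines for fatty acid oxidation (0.673-fold). Of all genes 27.4% were lower in that step.

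The second comparison asks how oil altered the carriers. Slick oil at 96 hpf gave by far the most calls. In the 9 libraries of that stage 177 members were tested, and against control 11 were higher and 32 lower in slick at an edgeR adjusted p below 0.05. Of all 8511 genes tested, 10.9% were higher and 10.4% lower, 21.2% together, so the share of members that were higher (6.21%) lay below that of all genes and the share that were lower (18.1%) above it. The median log2 change was -0.09 over the members and 0.01 over all genes tested. The count of called members was 19 with DESeq2 (6 higher, 13 lower) and 30 to 38 when any 1 library was left out. A total of 15 members, 4 higher and 11 lower, were called under every alternative and without any 1 library. Among them SLC5A3, SLC15A4, SLC16A12 and SLC6A11 were higher, and SLC38A8, SLC6A4, SLC6A18, SLC15A2, SLC7A2, SLC6A16, SLC3A2, SLC12A5, SLC6A19 and SLC25A3 were lower. No called member changed direction under any alternative. In the same comparison 3 of 4 skeletal muscle markers were higher, both heart markers and 2 of 3 red blood cell markers were lower, and of 7 liver markers 4 were higher and 1 lower; their part in the members' changes was not tested.

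**Figure D2:**
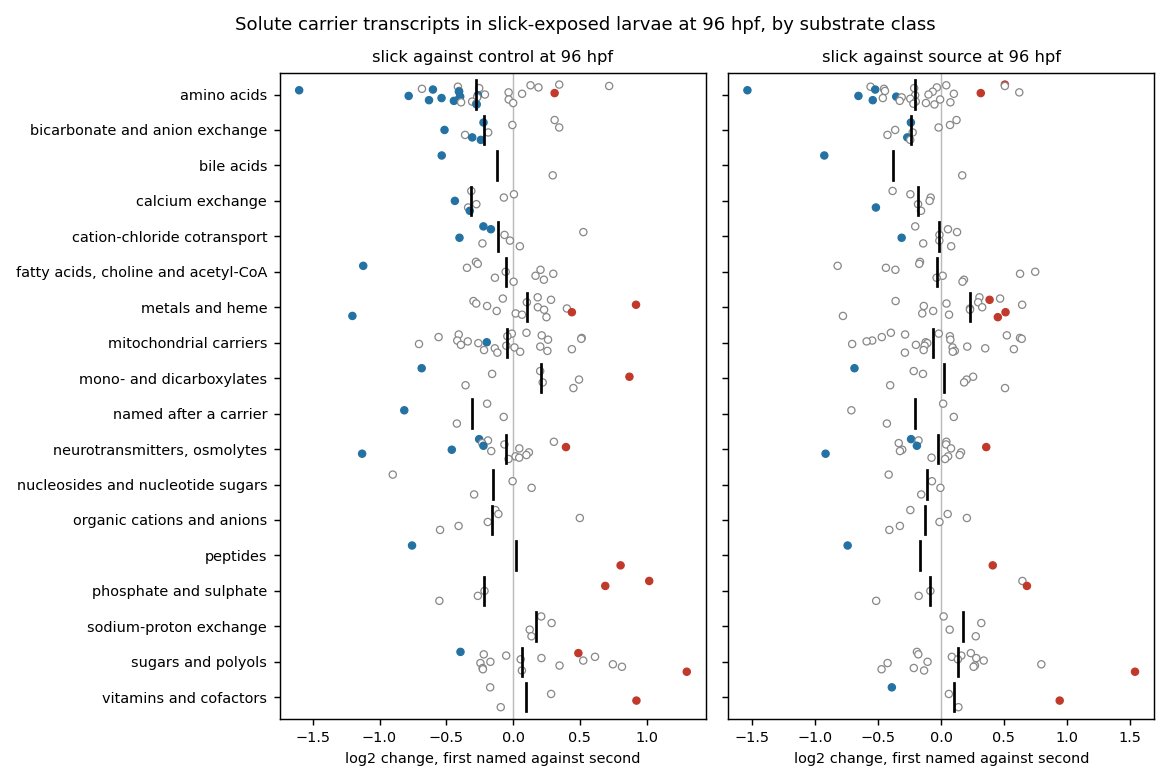
Log2 change at 96 hpf for each solute carrier tested, by substrate class, for slick against control (left) and slick against source (right); bars are class medians, red and blue points were higher or lower at an adjusted p below 0.05, and open points were not called. On the left, 11 of 29 amino acid carriers are lower and 1 is higher, against 10.4% and 10.9% of all genes. The extreme points there are SLC38A8 (-1.60) and SLC5A3 (1.30).

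Amino acid carriers gave the most calls, with 11 of 29 lower in slick at 96 hpf, 1 higher and a class median of -0.28. Of all genes tested, 10.4% were lower and 10.9% higher. Among the lower carriers SLC7A1, SLC7A3, SLC7A8, SLC7A10 and SLC6A17 lost their calls with DESeq2. With summed lines SLC7A3, SLC7A8, SLC7A10 and SLC38A5 lost theirs. SLC38A8, a glutamine carrier whose loss in humans disturbs the development of the fovea, had 15.7, 13.9 and 20.2 CPM in controls and 6.88, 5.04 and 3.48 CPM in slick (0.33-fold, log2 -1.60, SE 0.26, edgeR adjusted p 1.8e-07). Every slick library lay below every control library, and source, with 11.9, 13.6 and 19.5 CPM, overlapped controls. The cationic amino acid carriers SLC7A1, SLC7A2 and SLC7A3, which bring in arginine and lysine, were all lower, by log2 changes of -0.54, -0.63 and -0.44. SLC7A2 had 34.2, 44.9 and 48 CPM in controls against 22.9, 32.1 and 23 CPM in slick. SLC3A2, the heavy chain that carries several SLC7 light chains to the cell surface, fell to 0.755-fold, with 79.5, 83.9 and 67.2 CPM in controls, 66.5, 48.6 and 57 CPM in slick and 64.3, 60.3 and 59 CPM in source. Its groups did not overlap for either oil, and in source the difference missed the threshold (edgeR adjusted p 0.055). Its partners SLC7A8 (-0.27) and SLC7A10 (-0.41) and the glutamine carrier SLC38A5 (-0.60) were also lower, whereas SLC7A5, SLC7A6 and SLC7A7 were not called (log2 changes of -0.39, 0.00 and -0.28). SLC43A2, a facilitative carrier of large neutral amino acids, was the exception, with 85.5, 89.5 and 75.3 CPM in controls and 92.6, 104 and 109 CPM in slick (log2 0.31, SE 0.08, edgeR adjusted p 0.0029).

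Carriers of the absorptive brush border were among the lower members. SLC6A18, a neutral amino acid carrier of the kidney in rodents, had 109, 121 and 104 CPM in controls, 69.3, 62.3 and 59.1 CPM in slick and 93.3, 96.6 and 115 CPM in source (0.582-fold, log2 -0.78, SE 0.09, edgeR adjusted p 6e-13 for slick against control). SLC6A19 had 191, 228 and 190 CPM in controls and 153, 160 and 140 CPM in slick (0.76-fold, edgeR adjusted p 1.9e-06). SLC15A2 had 40.9, 43.5 and 48.9 CPM in controls and 28, 28 and 19.6 CPM in slick (0.592-fold, edgeR adjusted p 2.4e-06). Slick and control did not overlap in any of these. SLC13A2 (log2 -0.68, edgeR adjusted p 0.013) and SLC10A2 (log2 -0.53, edgeR adjusted p 0.045) were lower by smaller margins of the test. SLC13A2 lost its call with DESeq2 and in 1 of the 6 fits that left out 1 library. SLC10A2 lost its call with DESeq2, with summed lines and in 4 of these 6 fits. Some other carriers of the same membranes missed the threshold: SLC5A1 had a log2 change of -0.23 (edgeR adjusted p 0.06), SLC34A2 of -0.55 (0.16), SLC23A1 of -0.17 (0.32), SLC5A11 of -0.23 (0.45) and SLC28A2 of -0.90 (0.1). These carriers were gathered from textbook knowledge after their values had been seen, and further carriers of these membranes were left out. The direction that the gathered carriers share therefore says nothing of such carriers as a whole. Markers of the intestine moved in both directions. Of 4 tested, ANPEP, MEP1B and MEP1A were lower and APOA4 was higher (log2 0.62). The summed level of the marker list, made up mostly of ANPEP, was 340.2 to 370.7 CPM in controls and 166.4 to 184.8 CPM in slick. ANPEP, a brush border peptidase, had log2 -1.06. None of 4 tested kidney tubule markers was called, with sums of 351.4 to 385.1 CPM in controls and 356.2 to 395.2 CPM in slick. The part of these cell types in the result was not tested.

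**Figure D3:**
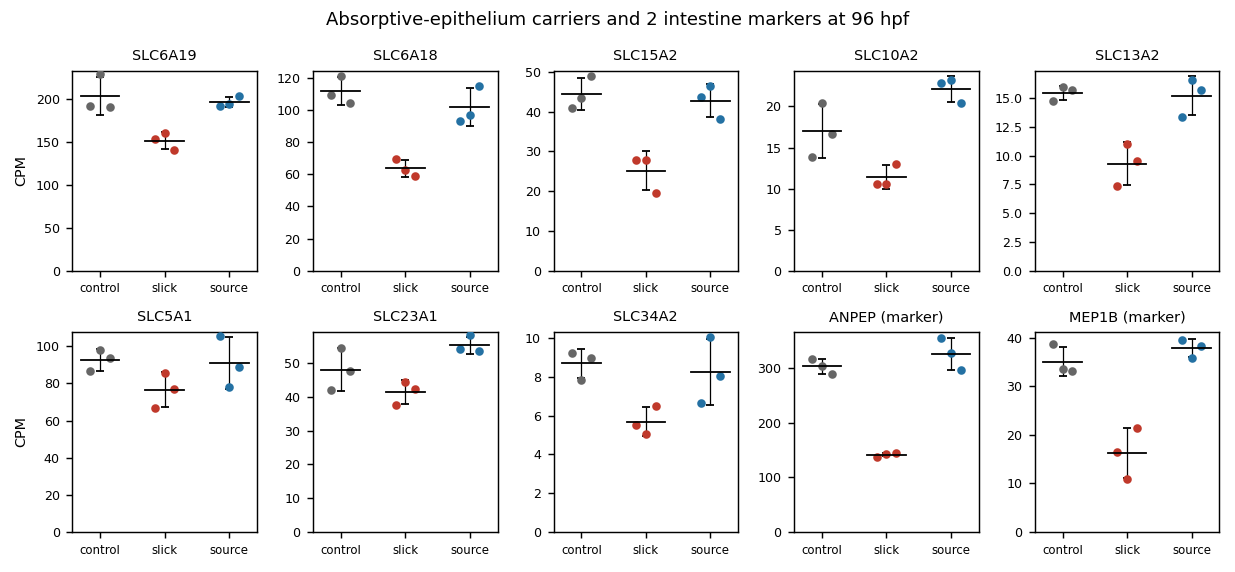
Levels (CPM, linear axes from 0) of 8 carriers of absorptive epithelia and of the intestine markers ANPEP and MEP1B in the 9 libraries at 96 hpf; points are libraries, bars the mean and whiskers 1 SD (n = 3). SLC6A18 sits at 59.1 to 69.3 CPM in slick and at 93.3 CPM or above elsewhere, whereas SLC5A1 and SLC23A1 lie closer together, and ANPEP is at 138 to 144.4 CPM in slick and at 288.7 CPM or above elsewhere. The other tested intestine markers, MEP1A (lower in slick than in control) and APOA4 (higher, log2 0.62), are not drawn.

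Neurotransmitter carriers moved in both directions at 96 hpf in slick. SLC6A4, which takes serotonin back into cells, had 21.3, 17.7 and 18.8 CPM in controls, 7.8, 9.63 and 8.26 CPM in slick and 16.7, 17.5 and 15.3 CPM in source (0.457-fold, log2 -1.13, SE 0.21, edgeR adjusted p 6.2e-06). The slick libraries lay below all others of the stage. SLC6A11, a mainly glial GABA carrier, had 285, 273 and 292 CPM in controls and 361, 398 and 322 CPM in slick (1.32-fold, edgeR adjusted p 4.6e-08). SLC17A7, which loads glutamate into synaptic vesicles, was lower (log2 -0.25), as was the orphan member SLC6A16 (-0.46). The call of SLC17A7 was lost with DESeq2 and in 2 of the 6 fits that left out 1 library. The other 11 of the 16 carriers tested were not called, among them the glycine carriers SLC6A5 (0.10) and SLC6A9 (-0.03), the glial glutamate carrier SLC1A2 (0.13) and SLC32A1 (-0.07). Among all genes tested, 21.2% were called, 10.9% higher and 10.4% lower. Of 5 neuron markers tested, SYT1 was lower and 4 were not called, with a summed level of 384.3 to 405.2 CPM in controls and 358.3 to 377.9 CPM in slick. All 5 photoreceptor markers tested were lower, with sums of 1024 to 1100 CPM in controls and 509.6 to 591.3 CPM in slick. The part of neurons and photoreceptors in these results was not tested.

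Carriers of chloride, bicarbonate and calcium that were called in slick at 96 hpf were all lower, where 10.4% of all genes were lower and 10.9% higher. Of these carriers only SLC12A5 was called under every alternative and without any 1 library. SLC4A10 lost its call in 1 of the 6 fits that left out a library. SLC12A1, SLC12A2, SLC4A3, SLC4A7, SLC4A8, SLC24A5 and SLC8A3 lost theirs with DESeq2. SLC12A5 had 282, 288 and 273 CPM in controls, 211, 200 and 210 CPM in slick and 271, 254 and 260 CPM in source (0.757-fold, log2 -0.40, SE 0.06, edgeR adjusted p 8e-08). The slick libraries lay below all others. The sodium-potassium-chloride cotransporters SLC12A1, known from the kidney tubule, and SLC12A2, the secretory form, were lower by log2 changes of -0.22 and -0.17, and 5 of the 8 cation-chloride carriers tested were not called. Of 9 bicarbonate and anion exchangers 4 were lower: SLC4A3 (-0.51), SLC4A7 (-0.31), SLC4A8 (-0.24) and SLC4A10 (-0.22), sodium-coupled bicarbonate carriers apart from the anion exchanger SLC4A3. The calcium exchangers SLC24A5, which acts in pigment cells, and SLC8A3 were lower (-0.44 and -0.32), and 5 of 7 were not called. None of 4 sodium-proton exchangers was called by edgeR, and none had an estimate below 0. None of 6 ionocyte markers tested was called, with sums of 2493 to 2502 CPM in controls and 2232 to 2393 CPM in slick, whereas 3 of 6 pigment cell markers were lower. Their part in the result was not tested. Of the sodium-potassium pump, 5 subunit genes were tested, and ATP1B1 was lower (-0.30) and ATP1B4 higher (0.30).

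Several of the 11 members that rose in slick at 96 hpf are carriers of inositol or of lysosomes. This grouping was made after the values had been seen and from called members. Lysosomal members that were tested and not called were not gathered or counted. The grouping therefore says nothing of inositol or lysosomal carriers as a whole. SLC5A11, which carries inositol and glucose, was not among the called members. The lysosomal SLC38A7 did not pass the filter on low counts at 96 hpf, so it could not be called. SLC5A3, a sodium-coupled carrier of the osmolyte myo-inositol, had 9.47, 9.2 and 8.97 CPM in controls, 24.8, 22.9 and 18.7 CPM in slick and 6.67, 10.1 and 6.37 CPM in source (2.46-fold, log2 1.30, SE 0.20, edgeR adjusted p 3e-08). Every slick library was above every other library of the stage. A second inositol carrier, the proton-coupled SLC2A13, was at the edge of the threshold (log2 0.49, edgeR adjusted p 0.047) and lost its call without 5 of the 6 libraries left out in turn. SLC15A4, a lysosomal carrier of histidine and peptides, had 28.2, 29.4 and 23.3 CPM in controls, 43.6, 56.8 and 40 CPM in slick and 36.7, 37.2 and 33.5 CPM in source (1.75-fold in slick, edgeR adjusted p 1.1e-07). Its source libraries lay between the other groups without overlap, though source against control missed the threshold (log2 0.39, edgeR adjusted p 0.18). SLC17A5, the lysosomal exporter of sialic acid, and SLC46A3, also found in lysosomes, were higher by log2 changes of 0.69 and 0.92, and SLC17A4 by 1.02 at levels of 2.54 to 6.09 CPM. SLC17A4 passed the filter on low counts at 96 hpf only through the slick libraries, where it is high, so its call does not count towards the grouping. With DESeq2 the calls of SLC46A3 and SLC17A4 were lost. In the 6 fits that left out 1 library, SLC17A4 lost its call in 4 and SLC17A5 in 1. Of 12 tested subunits of the vacuolar proton pump, which acidifies lysosomes, ATP6V0D1 and ATP6V1H were higher (0.25 and 0.22), both with overlapping groups, and none was lower. Of all genes tested in this comparison, 10.9% were higher and 10.4% lower. The part of the pump in the members' changes was not tested.

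SLC16A12, a creatine carrier of the monocarboxylate family, was called for slick at both later stages. At 48 hpf it had 12.8, 17.3 and 13.4 CPM in controls and 30.3, 24.1 and 24.6 CPM in slick (log2 0.87, SE 0.16, edgeR adjusted p 0.00029), a call that was lost with summed lines (log2 0.71, edgeR adjusted p 0.055). At 96 hpf the values were 12.9, 11.7 and 9.86 CPM in controls, 22, 17.9 and 22.6 CPM in slick and 16.7, 20.1 and 16.5 CPM in source (log2 0.87, SE 0.19, edgeR adjusted p 0.00011). Slick and control did not overlap at either stage. At 24 hpf the slick libraries had 14.4, 14.8 and 11.2 CPM within the range of controls.

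**Figure D4:**
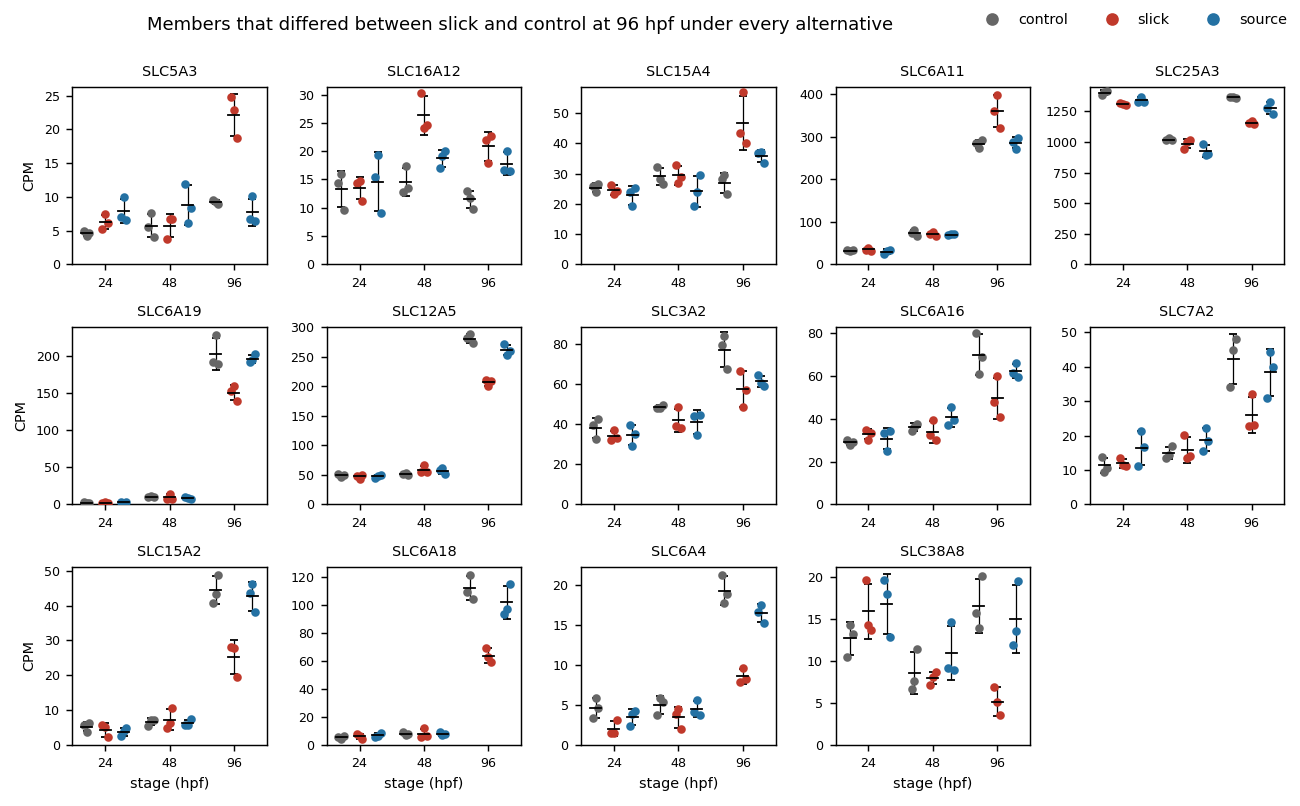
Levels (CPM, linear axes from 0) of 14 of the 15 members called for slick against control at 96 hpf under every alternative, in all 27 libraries by stage and treatment; points are libraries, bars the mean and whiskers 1 SD (n = 3). SLC5A3, SLC15A4, SLC16A12 and SLC6A11 lie above control in slick at 96 hpf and the other 10 below, and SLC16A12 also lies above control in slick at 48 hpf.

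Among carriers of metals, ferroportin (SLC40A1) was higher in slick at 96 hpf, with 27.5, 26.3 and 27.8 CPM in controls and 40.8, 30.3 and 35.7 CPM in slick (log2 0.44, edgeR adjusted p 0.011), and 14 of the 17 metal and heme carriers tested were not called. For this and the other classes below, 21.2% of all genes tested were called, 10.9% higher and 10.4% lower. The copper carrier relative SLC31A2 (0.92) and the magnesium carrier relative SLC41A3 (-1.20) were called at levels of 0.917 to 8.71 CPM, where control and slick overlapped for SLC31A2. Of 24 mitochondrial carriers 1 was called, the phosphate carrier SLC25A3, with 1366, 1372 and 1363 CPM in controls and 1153, 1169 and 1146 CPM in slick (0.872-fold, edgeR adjusted p 0.0015). The ADP/ATP carriers SLC25A4 (0.01) and SLC25A5 (0.05) were not called. Among sugar carriers the glucose carrier SLC2A1 was lower (-0.39) with overlapping groups, and SLC2A2 (-0.22, edgeR adjusted p 0.11) was not called. SLC27A3, a fatty acid carrier and acyl-CoA synthetase, was lower (-1.12) at 2.17 to 7.17 CPM, and 10 of the 11 carriers of fatty acids, choline and acetyl-CoA were not called. None of 4 nucleoside carriers and 6 carriers of organic ions was called by edgeR, although SLC28A2 had an unadjusted p of 0.028. Of the proteins named after carriers, SLC4A1AP was lower (-0.81, edgeR adjusted p 0.044). Among the calls of this paragraph only that of SLC25A3 held under every alternative and without any 1 library. SLC40A1, SLC31A2, SLC41A3, SLC27A3 and SLC4A1AP lost theirs with DESeq2 and with summed lines, and SLC2A1 with DESeq2. In the 6 fits that left out 1 library, SLC31A2 and SLC27A3 lost theirs in 5, SLC41A3 and SLC4A1AP in 4, and SLC40A1 and SLC2A1 in 2.

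**Figure D5:**
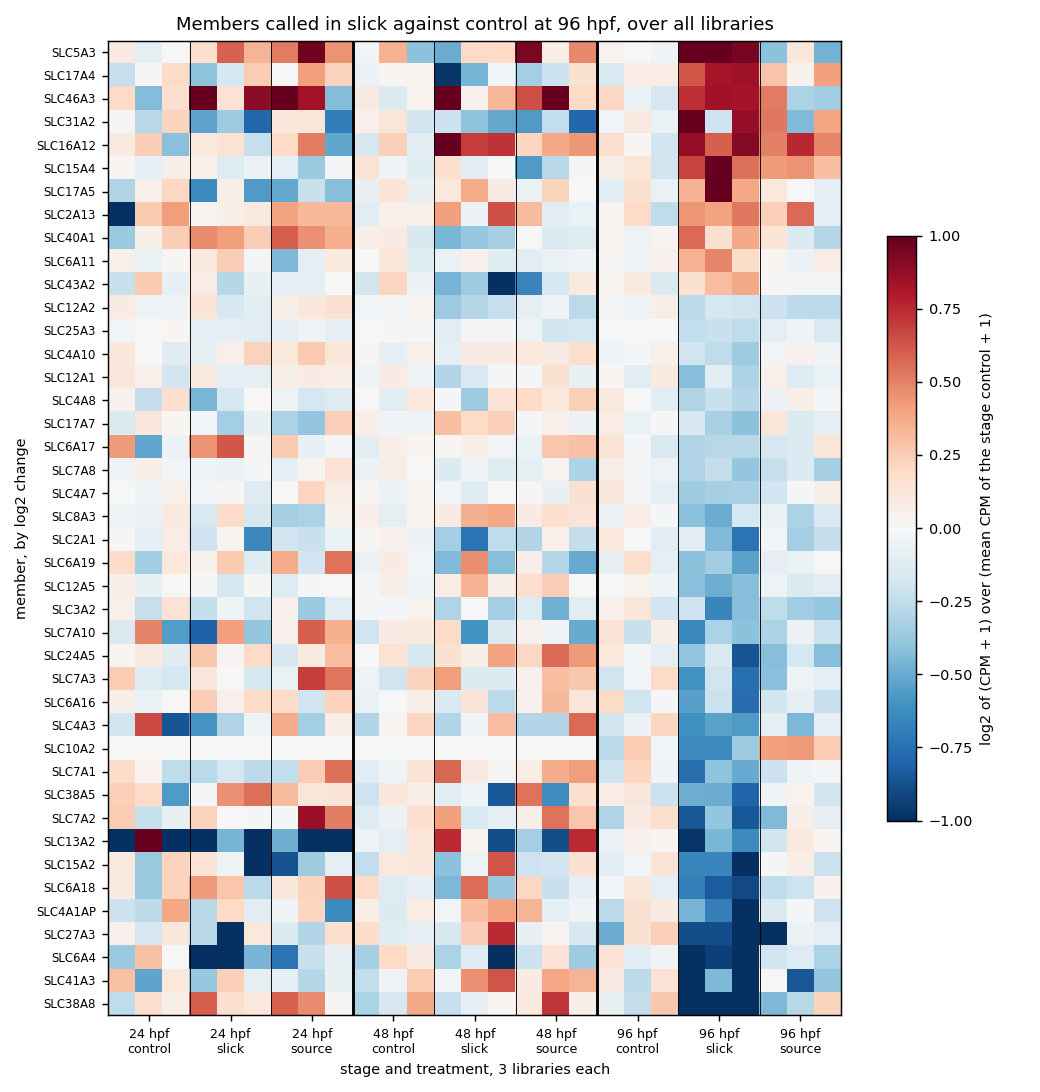
Of the 43 members called for slick against control at 96 hpf, 42 are drawn (rows, ordered by log2 change) in all 27 libraries (columns); colour is the log2 of CPM plus 1 over the mean control CPM of the same stage plus 1, with colours capped at 1 in both directions. The rows were chosen on the 96 hpf control and slick columns, where SLC5A3 has the largest rise (1.30) and SLC38A8 the largest fall (-1.60).

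At 96 hpf slick was also set against source. There 10 members were higher and 16 lower in slick of 177 tested, against 6.99% and 6.47% of all genes. DESeq2 called 2 higher and 8 lower, and summed lines gave 4 higher and 18 lower. This comparison shares the slick libraries with the one above, so both are given side by side and not as independent evidence. SLC38A8 had log2 changes of -1.54 against source and -1.60 against control, SLC6A4 of -0.92 and -1.13, SLC15A2 of -0.74 and -0.76, and SLC5A3 of 1.54 and 1.30. SLC10A2 stood further apart from source than from control (-0.93 and -0.53), with source at 22.9, 23.2 and 20.4 CPM and slick at 10.5, 10.5 and 13 CPM. SLC23A1 was called against source (-0.39, edgeR adjusted p 0.018) and not against control (-0.17), and the call against source was lost with summed lines, with DESeq2 and without slick replicate 7 or source replicate 17. For SLC3A2, SLC16A12 and SLC12A2 the difference between the oils was -0.07, 0.26 and 0.06 and was not called. Of the 4 intestine markers tested, ANPEP (-1.17), MEP1B (-1.18) and MEP1A (-1.20) were lower than in source. Of 4 kidney tubule markers CUBN was lower (-0.77), as were all 5 photoreceptor markers and 1 of 5 neuron markers. Their part in the members' differences was not tested.

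Source oil gave few calls at any stage. At 96 hpf 1 of 177 members was called against control, SLC12A2, with 314.5, 309.9 and 331.7 CPM in controls, 275.2, 265.4 and 266.1 CPM in source and 263.7, 281.4 and 277.8 CPM in slick (log2 -0.22, SE 0.06, edgeR adjusted p 0.035 for source). Of all genes tested, 1.1% were called and 0.587% were lower. The call was lost without any 1 of the 6 libraries (edgeR adjusted p 0.069 to 0.19), with DESeq2 (DESeq2 adjusted p 0.089) and with summed lines (edgeR adjusted p 0.47), and 3 members were called when the control pairs were kept as separate samples. At 48 hpf SLC6A13 was called, with 57.6, 54.3 and 61.9 CPM in controls and 73, 79.9 and 67.7 CPM in source (log2 0.35, edgeR adjusted p 0.043), against 1.32% of all genes, 0.658% higher and 0.658% lower. It kept its call in 1 of the 6 fits that left out a library. At 24 hpf SLC16A4 was called, with 8.25, 5.84 and 4.08 CPM in controls, 15, 12.8 and 14.2 CPM in source and 12, 9.87 and 10.1 CPM in slick (log2 1.22, SE 0.28, edgeR adjusted p 0.006), against 1.69% of all genes, 0.993% higher and 0.696% lower. Without control replicate 3 its edgeR adjusted p was 0.125.

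At 48 hpf 7 of 157 members were called for slick against control, 1 higher and 6 lower, against 1.48% and 1.82% of all genes. SLC12A2 had 313, 317 and 326.6 CPM in controls and 248, 261.6 and 271.3 CPM in slick (log2 -0.28, SE 0.06, edgeR adjusted p 0.001), without overlap, and was called under every alternative. SLC16A12 was the higher one. The amino acid carriers SLC43A2 (-0.60) and SLC7A7 (-0.41), the zinc exporter SLC30A1 (-0.52) and the nucleoside carrier SLC29A1 (-0.46) had edgeR adjusted p-values of 0.026 to 0.042. The calls of SLC43A2, SLC7A7, SLC30A1 and SLC29A1 were lost with DESeq2 and with summed lines. DESeq2 called 3 members, summed lines gave 3, and the count was 4 without slick replicate 6, 5 without either of 2 of the control libraries (pairs 4 and 5, and 6 and 7) and 8 at most. At 24 hpf edgeR called no member for slick against control (0.58% of all genes), while 10 of 147 had an unadjusted p below 0.05 and DESeq2 called none. Slick against source gave no called member at 24 or 48 hpf with edgeR or DESeq2 (13 of 147 and 8 of 157 at an unadjusted p below 0.05), with 0.219% (0.0387% higher) and 0.744% of all genes called. DESeq2 can leave genes without an adjusted p, and the number of members it adjusted in these comparisons was not counted. Its lack of calls therefore adds nothing to that of edgeR. In the authors' deposited table of slick at 24 hpf only 7 members had an adjusted p.

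Interaction contrasts in the fit over all libraries tested whether the effect of an oil differed between neighbouring stages. For slick from 48 to 96 hpf, 24 of 188 members were called, 9 with a higher and 15 with a lower effect at 96 hpf, against 5.03% and 6.61% of all genes. SLC43A2 turned from lower at 48 hpf to higher at 96 hpf (a difference of 0.87 in log2 effects), and SLC12A5 and SLC17A7 had lower effects at 96 hpf (differences of -0.62 and -0.56). The call of SLC43A2 at 48 hpf was itself lost with DESeq2, with summed lines and in 2 of the 6 fits that left out 1 library. For slick from 24 to 48 hpf, SLC29A1 and SLC25A20 were called, both with a lower effect at 48 hpf, against 0.674% of all genes (0.483% lower), and for source from 24 to 48 hpf SLC16A4, against 0.146%. For source from 48 to 96 hpf edgeR and DESeq2 called none (12 of 188 at an unadjusted p below 0.05, and 0.652% of all genes called). The number of members given an adjusted p by DESeq2 was not counted.

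The authors' deposited table of slick against control at 96 hpf called 7 members higher and 15 lower at its adjusted p below 0.05, among 170 members with an adjusted p. In the authors' deposited table SLC5A3 had a log2 change of 1.06, SLC15A4 of 0.72, SLC38A8 of -1.18, SLC6A18 of -1.02 and SLC6A4 of -0.84, and SLC15A2 was not called (-0.39, adjusted p 0.241). For 23 of the 177 members, the mean of the line used here lay over 1.5-fold from the mean in the authors' deposited table, among them 6 called ones (SLC15A2, SLC43A2, SLC4A8, SLC6A18, SLC7A2 and SLC7A3), so the 2 changes are not those of the same line. The authors' deposited table for slick at 48 hpf called SLC12A2, SLC16A12 and SLC29A1. When each distinct line was fitted as a feature of its own, 27 of the 43 members called at 96 hpf had several tested lines. In 15 of these all lines were called the same way, and in the other 12 at least 1 line was not called and none was called the opposite way. The second line of SLC6A19 (-0.15) and both further lines of SLC16A12 (0.25 and 0.19) were among those not called. For SLC4A8 only 1 of 6 tested lines was called. Of the 16 members with 1 tested line, SLC10A2, SLC4A1AP and SLC7A3 were not called in that fit. Lines of a gene often hold nearly equal counts and are not independent.

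A list of carriers with other symbol forms, chosen by name, held 24 measured genes of which 15 were tested at 96 hpf. In slick against control SLC35E1 was higher (log2 1.63) and the organic anion carriers SLCO1C1 (-1.18), which moves thyroid hormone, and SLCO3A1 (-0.57) were lower. The remaining 12 were not called. Of all genes tested in this comparison, 21.2% were called, 10.9% higher and 10.4% lower. Whether the calls of this list held under the alternatives was not examined.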

How the data were processed

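The authors deposited whole-number counts per table line, keyed to human gene identifiers, and comparison tables of each oil against control. Per the file headers those tables hold a mean signal of normalised counts, a log2 change and standard error, a Wald score, and a p-value before and after adjustment. The submitters' processing notes name HTSeq, DESeq2 and build hg19, with no role or version. A step tying fish reads to human genes was not given in the sources used here. Libraries were made with a TruSeq kit, per the labels' protocols. Members, substrate classes and lists were chosen with earlier results of these data known.

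Of 42538 lines, 332 had no identifier (0.043% of the counts or less) and were left out. The line with the highest total stood for each gene. Samples of a group were compared pairwise by chi-square over genes with at least 20 counts; 5 control pairs above a p of 0.001 were summed, leaving 27 libraries from 32 samples. The labels do not say that replicates were separate spawns, and p-values then cover only the spread among these samples, which may be technical.

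Differences were tested with edgeR 4.0.16 (R 4.3.3): TMM scaling, filterByExpr, quasi-likelihood F-tests (two-sided) and Benjamini-Hochberg adjustment over all genes tested, with a call below 0.05. Oil comparisons were fitted within a stage (9 libraries, 6 residual degrees of freedom) and stage and interaction contrasts over all 27 (18 residual degrees of freedom). Where a group had no count, the fold is a bound set by 3 counts over the group. Depth sets the precision for genes of few counts, and such bounds cover counting error only. Alternatives were RLE scaling, no filter, summed lines, other sets of samples, DESeq2 1.42.0 and leaving out each library; each line as a feature was added after seeing the data. The fits were tested on simulated counts. Members were named by a rule: for each oil comparison up to 5 called members at either end of the log2 change and up to 3 of lowest p in each class with 2 or more called; for the control stages 5 at either end whose groups averaged 20 normalised counts or more without overlap, and the lowest p per class; for each interaction up to 5 of lowest p; and members called at several stages. Others named in the text, the grouping of absorptive carriers included, were chosen after their values were seen. Results for some members named by the rule are not reported here.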

Additional observations from a re-analysis of the deposited data

Results flagged for a closer look

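In 7 cases the effect of an oil on a member differed between stages by the interaction contrast of edgeR (adjusted p below 0.05); values are differences of log2 effects, later minus earlier stage. For slick from 48 to 96 hpf, SLC43A2 (0.874, adjusted p 0.00039) went from -0.60 to 0.31 in the within-stage fits, SLC40A1 (0.799, adjusted p 0.0022) was higher at 96 hpf, and SLC12A5 (-0.625) and SLC8A3 (-0.655) were lower at 96 hpf. The interactions of these 4 were called under every alternative and without any 1 library. The call of SLC43A2 at 48 hpf itself was lost with DESeq2 and with summed lines.

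For slick from 24 to 48 hpf, SLC29A1 had -0.709 (adjusted p 0.02) and SLC25A20, the acylcarnitine carrier, -0.67 (adjusted p 0.044), with 61.6, 59.5 and 45.9 CPM in controls and 71.5, 61.7 and 62.9 CPM in slick at 24 hpf, and 35.2, 37.3 and 44.4 CPM against 29.1, 29.9 and 27 CPM at 48 hpf. For source from 24 to 48 hpf, SLC16A4 had -1.37 (adjusted p 0.03). Of 12 fits that each left out 1 library, SLC25A20 lost its call in 10 and SLC29A1 and SLC16A4 in 7 each. SLC16A4 had an adjusted p of 0.240 without 24 hpf control replicate 3, and SLC29A1 and SLC25A20 were lost with summed lines (0.119 and 0.134) and with DESeq2 (0.108 and 0.212).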

How the results depend on the processing

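No single member named changed sign, but 2 counts turned direction, given below. With DESeq2 the members called fell from 43 to 19 for slick against control and from 26 to 10 for slick against source at 96 hpf, from 7 to 3 for slick at 48 hpf, from 24 to 11 for the change of the slick effect from 48 to 96 hpf, from 2 to 0 for that from 24 to 48 hpf, and from 1 to 0 for source at 48 and 96 hpf and for the change of the source effect from 24 to 48 hpf. For source at 24 hpf DESeq2 called 1 member, lower, where edgeR called SLC16A4, higher. DESeq2 gave SLC16A4 no adjusted p there or for the change of the source effect from 24 to 48 hpf. It gave none to SLC6A13 for source at 48 hpf either. In these cases DESeq2 neither kept nor lost the edgeR call. With summed lines slick at 48 hpf gave 3, source at 48 and 96 hpf 0, and the slick effect from 24 to 48 hpf 1 (higher, where edgeR gave 2 lower); slick against source at 96 hpf split 4 to 18 in place of 10 to 16. Without the filter the source counts at 24, 48 and 96 hpf and the change of the source effect from 24 to 48 hpf were 2 each, and with samples as deposited the source counts were 2 at 48 and 3 at 96 hpf. The cause was not tested. RLE scaling moved no count by over 1.5 times.

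Leaving out each library in turn gave 30 to 38 for slick and 18 to 22 for slick against source at 96 hpf, 4 to 8 for slick at 48 hpf, 0 to 2 for source at 24 and 48 hpf, 0 to 1 for source at 96 hpf, and 0 to 0 for slick and for slick against source at 24 hpf. Ranges were 62 to 73 and 120 to 125 for the control stages, and 0 to 2, 0 to 1 and 16 to 26 for the interactions of slick from 24 to 48 hpf, source from 24 to 48 hpf and slick from 48 to 96 hpf. Control and slick share label numbers 1 to 3 at 24 hpf. A replicate block on them gave 0 called members, as did the same 6 libraries without it. The deviations of same-numbered libraries correlated by 0.049, 0.001 and 0.026, and those of unlike-numbered ones by -0.038 to 0.014. With 3 libraries per group these values cannot tell whether same-numbered libraries share more than a number. Depth limits what can be seen of members at a few CPM.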
